A study of Jatropha curcas with 15 samples.

Results

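MBF1c (MULTIPROTEIN BRIDGING FACTOR 1C) was read in Jatropha curcas inflorescence buds by 1 probe, CUST_1121, of 41651 on the array, and was chosen by its measured fold changes after cytokinin treatment. Its own rise is therefore given as a description, without a test. The buds came from 1-year-old plants grown in a field, received a spray of the synthetic cytokinin 6-benzyladenine (BA) at 1 mM and were taken at 5 times, 0, 3, 12, 24 and 48 h later, each time in 3 biological replicates that were read on 1 one-colour array each. All 15 samples belong to the BA series, the buds collected at 0 h are the only reference, and no buds sprayed without BA were followed over the same hours. BA, the spray itself and the time that passed therefore cannot be told apart. At 3 and 12 h the hour of the day differs from that of 0 h as well, whereas by their labels 24 and 48 h fall at the same clock hour. The buds are whole mixed tissue, in which more cells of a type and more RNA per cell cannot be told apart. Flower identity genes were present on the arrays, since AP1, AP3, AG, SEP1, SEP2 and SEP3 were each well above background on 15 of 15 arrays.

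MBF1 proteins are transcriptional coactivators that are thought to link DNA-bound transcription factors with the TATA-binding protein of the basal transcription machinery. In Arabidopsis, MBF1c is the family member induced by stress, above all by heat, and it is known as a regulator of heat tolerance that acts with salicylic acid, trehalose and ethylene signalling. Ethylene signalling runs from receptors in the endoplasmic reticulum, such as ETR1 and EIN4, to transcription factors of the ERF family, whereas heat shock proteins and DnaJ cochaperones keep other proteins folded.

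The probe is shown because every MBF1c value below rests on this 1 oligonucleotide. It was designed on an expressed sequence tag, is 60 bases long and has a GC content of 41.7%. It is printed in lower case with no part marked, followed by the probes of the 2 heat shock protein genes whose pattern over arrays came nearest to it among the probes annotated as heat shock proteins.
CUST_1121, MBF1c: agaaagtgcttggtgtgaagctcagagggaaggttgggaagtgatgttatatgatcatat
CUST_22665, putative heat-shock protein: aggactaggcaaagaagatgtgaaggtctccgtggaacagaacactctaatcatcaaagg
CUST_23529, putative heat-shock protein: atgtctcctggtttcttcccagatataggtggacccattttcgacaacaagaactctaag
The longest run of bases that CUST_1121 shared with any of 2900 other probe sequences, read on both strands, was 12 of 60, and it shared 7 with CUST_22665 and 4 with CUST_23529. No other probe among those 2900 was designed on the same tag. The name MBF1c rests on the study's annotation by homology with Arabidopsis.

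MBF1c was lowest at 0 h on all arrays and higher at every time point after BA. Its processed spot intensity was 700, 587 and 544 at 0 h in replicates 1, 2 and 3. It had reached 8661, 3806 and 13625 by 3 h and 8438, 8411 and 15683 by 12 h. The highest intensities came at 24 h, with 21827, 12274 and 63404. They were lower again at 48 h, with 3856, 5260 and 2333. The spot was well above background on 15 of 15 arrays and was saturated on 0. The dimmest value lay far above the local background around the spot, which was 35 to 50 intensity units. The error that the extraction software assigned to the spot was about 10% of the signal on each array, which is not a measured spread.

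To compare arrays, log2 intensities were set against the 75th percentile of each array, so that 0 marks a probe at that percentile and a difference of 1 is a 2-fold change. On this scale MBF1c stood at −2.98, −3.31 and −3.22 at 0 h, a mean of −3.17 ± 0.17 (SD, n = 3). At 3 h it was 0.65, −0.80 and 1.15, a mean of 0.33 ± 1.01. Replicate 2 at 3 h was the low one and lay among the values of 48 h. At 12 h the replicates were closer together, at 0.47, 0.51 and 1.09, with a mean of 0.69 ± 0.35. The level was highest at 24 h, at 1.82, 1.06 and 3.29, a mean of 2.06 ± 1.13, and replicate 3 stood above the other 14 arrays. By 48 h it had come down to −0.86, −0.36 and −1.47, a mean of −0.89 ± 0.55, still above all 3 arrays of 0 h.

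**Figure D1:**
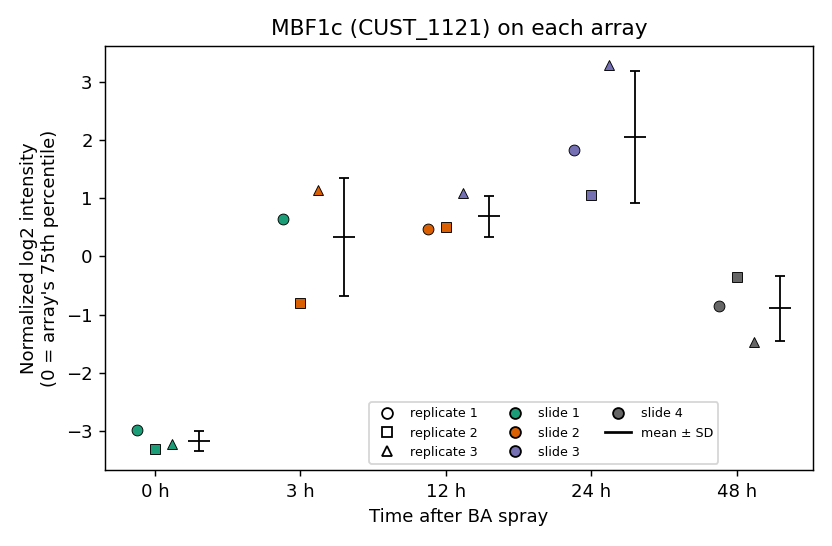
MBF1c on each of 15 arrays by time after the BA spray (x axis) as normalized log2 intensity (y axis, 0 being the array's 75th percentile), with the shape giving the replicate, the colour the slide and the bars the mean ± SD of 3 arrays. The 3 arrays of 0 h lie at or below −2.98 and the 12 later arrays at or above −1.47, with 24 h replicate 3 highest at 3.29.

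Relative to 0 h, the mean was higher by 3.50 on the log2 scale at 3 h (11.3-fold), 3.86 at 12 h (14.5-fold), 5.23 at 24 h (37.4-fold) and 2.28 at 48 h (4.84-fold). These were among the strongest rises on the array, at rank 14, 51, 12 and 152 of 34470 probes tested at 3, 12, 24 and 48 h. Single bud samples spread widely about these means. Against the mean of 0 h, the fold in single samples ran from 5.18 to 19.9 at 3 h, from 12.4 to 19.1 at 12 h, from 18.7 to 87.8 at 24 h and from 3.26 to 7.03 at 48 h. All 12 samples after BA thus stood at least 3.26-fold above the 0-h mean. Without replicate 3, the rise at 24 h was 24.4-fold in place of 37.4-fold, and without replicate 2 it was 52.9-fold.

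The means therefore ran from 24 h down through 12, 3 and 48 h to 0 h, but several neighbours in this order were not separated. The step between 12 and 3 h was 0.35 (1.28-fold), less than the SD of 1.01 at 3 h, and the arrays of these times overlapped. Between 24 and 12 h the means differed by 1.37 (2.58-fold), more than either SD, yet 24 h replicate 2 (1.06) lay just below 12 h replicate 3 (1.09). Between 3 and 48 h the difference was 1.23 (2.34-fold), again with overlap. The arrays of 3 and 24 h overlapped as well, since 3 h replicate 3 (1.15) lay above 24 h replicate 2 (1.06). The arrays of 48 h overlapped with neither those of 12 h nor those of 24 h, and the arrays of 0 h overlapped with no other time.

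Slides held up to 4 of these arrays and no slide held every time point, so only part of the time course could be read within a slide. All 3 arrays of 0 h lay on slide 1 with 3 h replicate 1, where the difference was 3.82 (14.1-fold), as against 3.50 over all arrays. On slide 2, 12 h exceeded 3 h by 0.31 with 2 arrays of each, and by 0.35 over all arrays. On slide 3 the 3 arrays of 24 h exceeded 12 h replicate 3 by 0.97 (1.96-fold), less than the 1.37 over all arrays. The 48-h arrays were alone on slide 4, so that this time point and the slide cannot be told apart. Slide 1 was also scanned 6 days before the others.

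The spread of MBF1c between replicates of 1 time point was itself large for this array. At 24 h the SD of 1.13 was greater than that of 99.7% of the probes tested, for which the median SD was 0.14. The SD at 3 h (1.01) was in percentile 99.3 and that at 48 h (0.55) in percentile 97.6. In contrast, the SD of 0.17 at 0 h was in percentile 64.3, and that of 0.35 at 12 h in percentile 82.9. The highest array exceeded the lowest by 4.69-fold at 24 h and by 3.85-fold at 3 h, and by 1.26-fold at 0 h.

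Genes of the pathways that MBF1c is placed in were then followed on the same arrays. For these, a moderated linear model (limma) over all 15 arrays compared each time with 0 h, p-values were adjusted by Benjamini-Hochberg over all 34470 probes tested, and calls needed both an adjusted p no higher than 0.05 and a change of 2-fold or more. At any of the 4 times, 13.0% of all probes tested were called. By time and direction, 1.69% were called higher and 0.896% lower at 3 h, 3.50% higher and 5.54% lower at 12 h, 2.18% higher and 0.998% lower at 24 h, and 1.88% higher and 0.818% lower at 48 h. All 20 heat shock probes, 6 of the 7 ERF probes and 1 of the 9 ethylene probes are among the entries held here of an annotated probe list of the study. Whether that list was limited to probes that changed on these arrays could not be settled, and only 6 of the 20 heat shock probes were called below. If it was, the counts and medians of these probes are fixed in part by that choice. They are therefore not taken as independent evidence of change or direction. The ethylene and salicylic acid probes and the remaining ERF probe come from the study's comparison with a database of Arabidopsis hormone genes. None of the 5 salicylic acid probes is among the entries held here of the annotated probe list. All members of the 4 lists were among those tested, and all but 2 of them, both heat shock or chaperone probes, were well above background on 15 of 15 arrays.

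Of the 9 ethylene probes in the study's hormone annotation other than MBF1c, 2 were called at any time (1 higher at 3 h, 2 lower at 12 h, 0 at 24 and 48 h). Over all probes tested 13.0% were called at any time, and a count this small is not read as a result about the list. The median difference of the 9 from 0 h lay between −0.02 and 0.10 over the 4 times. The receptors stayed near their level of 0 h. ETR1 differed by 0.04, −0.02, −0.03 and −0.10 at 3, 12, 24 and 48 h, with a standard error of 0.09 and adjusted p of at least 0.50. EIN4 differed by −0.28, 0.17, 0.06 and 0.29, with a standard error of 0.15 and adjusted p of at least 0.21. ETO1, which restrains ethylene synthesis by targeting the enzyme that makes its precursor, fell by 0.58 ± 0.08 (SE) at 12 h (limma adjusted p = 0.00017), a change under the 2-fold threshold, and was at −0.26, −0.31 and −0.39 at 3, 24 and 48 h.

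NCED3, an enzyme of abscisic acid synthesis that the annotation also lists here, moved in both directions. Its values were −4.47, −4.98 and −5.20 at 0 h, rose to −3.19, −4.05 and −3.86 by 3 h and then dropped to −7.29, −6.09 and −7.42 by 12 h. The arrays of 3 h all lay above those of 0 h and the arrays of 12 h all below. The differences were 1.18 ± 0.31 (SE) at 3 h (limma adjusted p = 0.0287) and −2.05 ± 0.31 at 12 h (adjusted p = 0.000322). The call at 3 h was lost when any of 0 h replicates 2 and 3 or 3 h replicates 1 and 3 was left out, each of which left 0 ethylene probes called there. MYB51, a Myb factor of indolic glucosinolate synthesis, was lower at 12 h by 1.23 on the log2 scale (2.35-fold, SE 0.26, adjusted p = 0.00261), with −0.54, −1.39 and −1.84 there against −0.18, 0.00 and 0.11 at 0 h. Without 12 h replicate 3, 1 ethylene probe was called at 12 h in place of 2, as also with the slide or the scan date as a fixed block. Calls over all probes at 12 h also fell then, from 3115 to 2663, 1954 and 2333 in the same order. Within slide 1, NCED3 was 1.69 higher on 3 h replicate 1 than on the 0-h arrays, but with the slide block 0 ethylene probes were called at 3 h (2.60% of all probes).

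The other members changed by less than 2-fold. The phosphatase IBR5 rose by 0.30 ± 0.08 (SE) at 24 h (limma adjusted p = 0.0334) and by 0.46 ± 0.08 at 48 h (adjusted p = 0.00702). VAD1, a GRAM domain protein linked to cell death in Arabidopsis, rose by 0.60 ± 0.14 at 12 h (adjusted p = 0.00467). The MAP kinase probe CUST_18905 (MPK4 or MPK6) and RCN1, a regulatory subunit of protein phosphatase 2A, did not pass the test at any time, with differences from −0.02 to 0.17 and from −0.11 to 0.10.

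Among 7 probes annotated as ethylene-responsive or AP2/ERF transcription factors, 2 were called at any time (13.0% of all probes tested), always higher than 0 h and with 1 probe called at each time. CUST_9236 was called at 3 h. It read −1.43, −1.34 and −1.45 at 0 h and 1.17, 0.46 and 0.26 at 3 h, with no overlap, a difference of 2.03 ± 0.23 (SE, limma adjusted p = 0.000206), while at 48 h its difference from 0 h was −0.17. CUST_3282 took the later times. It read −5.06, −4.82 and −4.71 at 0 h and differed by −0.51 from that at 3 h (adjusted p = 0.422), whereas its 3 arrays lay between −3.28 and −2.42 at 12 h and between −3.48 and −2.06 at 24 h, all above those of 0 h. Its differences were 1.96 ± 0.37 at 12 h (adjusted p = 0.00144), 1.98 at 24 h (adjusted p = 0.00756) and 1.35 at 48 h (adjusted p = 0.0322). The call at 48 h was lost without any 1 of the 3 arrays of 0 h, without 48 h replicate 2 or without 48 h replicate 3, and also with the slide as a random block. With the slide as a fixed block 0 ERF probes were called at 12 h (5.67% of all probes) and at 24 h (3 of all 34470 probes in that fit). With the scan date as a block 0 were called at 24 h (0.667% of all probes) and at 48 h (0.653%). With so few calls over all probes, these counts of 7 probes are no result about the ERF list. Within slide 2, CUST_3282 was 2.28 higher at 12 h than at 3 h. The median of the 7 was 0.24, 0.60, 0.55 and 0.19 at 3, 12, 24 and 48 h. Over all probes it was −0.04, 0.02, 0.01 and 0.02, from which nothing is read here, since 6 of the 7 come from a list that may hold only changed probes.

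Of 5 salicylic acid probes (TGA2, RAD51D, WHY1, GLIP1 and MYB96), 0 were called at any time by limma (13.0% of all probes tested), too few probes to read as a result. At 12 and 24 h, 1 each passed the adjusted p without the fold threshold. Their differences from 0 h ran from −0.68 to 0.84 over the 4 times.

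**Figure D2:**
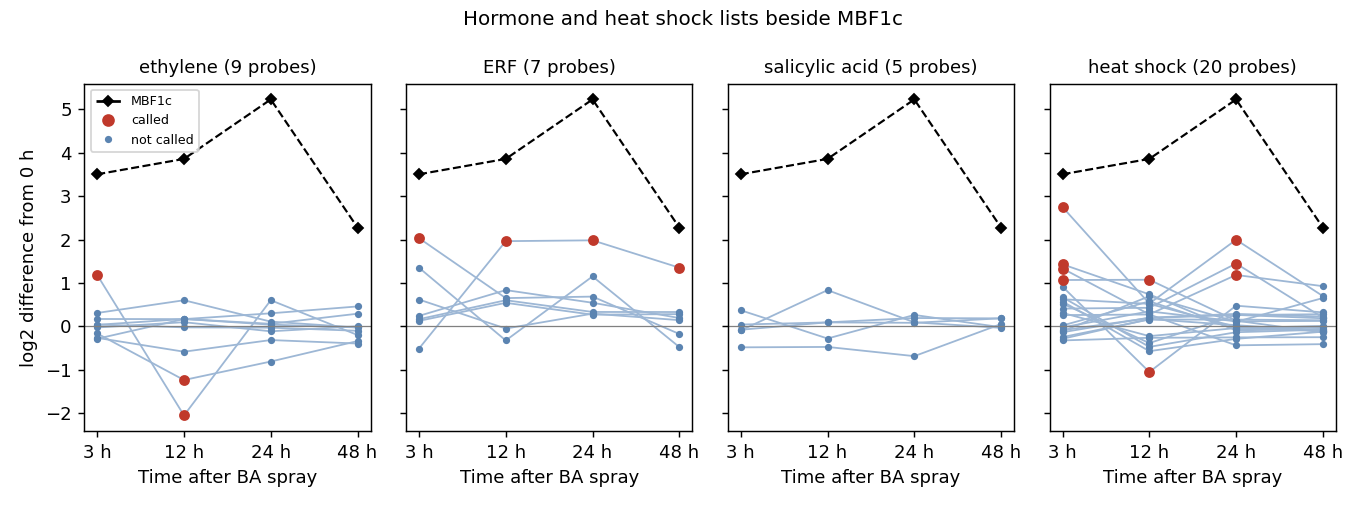
Difference from 0 h on the log2 scale (y axis) at 3, 12, 24 and 48 h after the BA spray (x axis) for each probe of 4 lists, with MBF1c repeated as the dashed black line in each panel and called probes in red. MBF1c lies between 2.28 and 5.23, above every list member at every time, the nearest being a heat shock probe at 2.75 at 3 h.

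Of 20 probes annotated as heat shock proteins, chaperones or their partners, 6 were called at any time (13.0% of all probes tested). At 3 h, 4 were higher and 0 lower (all probes 1.69% and 0.896%). By 12 h, 1 was higher and 1 lower (all probes 3.50% and 5.54%). The 24-h arrays gave 3 higher and 0 lower (all probes 2.18% and 0.998%). Those of 48 h gave 0 calls by limma (all probes 1.88% higher and 0.818% lower), with 3 probes past the adjusted p alone. The median of the 20 was 0.36, 0.24, 0.11 and 0.07 at 3, 12, 24 and 48 h. The members of this list were taken from the entries held here of the study's annotated probe list, which may hold only changed probes.

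CUST_22665 changed most. It read −1.84, −1.80 and −1.92 at 0 h, then 1.12, 0.08 and 1.48 by 3 h. The 12-h arrays read −1.96, −1.65 and −0.38, those of 24 h −0.22, −0.65 and 1.29, and those of 48 h −1.30, −0.89 and −1.29. As for MBF1c, replicate 2 was the low array at 3 h and replicate 3 the high array at 24 h. Unlike MBF1c, it overlapped with 0 h at 12 h. Its differences were 2.75 ± 0.50 (SE) at 3 h (6.72-fold, limma adjusted p = 0.00458) and 2.00 ± 0.50 at 24 h (3.99-fold, adjusted p = 0.0214), and 0.53 at 12 h (adjusted p = 0.446), where MBF1c was 3.86 above 0 h.

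CUST_23529 was also called higher at both times. Its arrays of 12 and 48 h all lay above those of 0 h too. The differences there were 0.28 (limma adjusted p = 0.37) and 0.93 (1.90-fold, adjusted p = 0.0213), both under the fold threshold. It read −4.07, −4.16 and −4.02 at 0 h, then −2.49, −3.30 and −2.45 by 3 h, while the arrays of 24 h read −3.07, −3.19 and −2.44, a rise of 1.33 ± 0.23 (SE) at 3 h (limma adjusted p = 0.00303) and 1.19 ± 0.23 at 24 h (adjusted p = 0.00804). The probe CUST_28801 was called at 3 h alone, at 1.43 ± 0.24 (adjusted p = 0.00308), with −0.39, −0.88 and 0.47 there and −1.82, −1.63 and −1.63 at 0 h. CUST_23550 was 1.07 higher at 3 h (adjusted p = 0.0067) and at 12 h (adjusted p = 0.00181), and it stood at 0.13 and −0.14 from 0 h at 24 and 48 h.

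The DnaJ chaperone probe CUST_38293 and the HSC70-1-like probe CUST_20024 had other courses. CUST_38293 rose at 24 h, from −3.01, −2.57 and −2.67 at 0 h to −1.38, −1.37 and −1.15, by 1.45 ± 0.20 (SE, limma adjusted p = 0.00229). It was the list member whose 15 values followed MBF1c most closely, at a Pearson correlation of 0.741. CUST_20024, annotated by likeness to the cytosolic chaperone HSC70-1, was lower at 12 h by 1.05 (2.07-fold, adjusted p = 0.00128) and was 0.92 higher at 3 h (adjusted p = 0.00991), under the fold threshold.

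Of the 3-h arrays, 1 shares a slide with 0 h, whereas 24 h shares no slide with 0 h. On slide 1, where 3 h replicate 1 lay beside the 3 arrays of 0 h, CUST_22665 was 2.98 higher, CUST_23529 1.59, CUST_28801 1.31 and CUST_23550 1.00 higher. The 3-h differences in the block fits below are these same values, because 3 h replicate 1 alone links 0 h to the other slides and to the later scan date. All block-adjusted differences from 0 h thus depend on that 1 array, and they are not separate checks at 3 h. On slide 3 the probes called at 24 h were higher on the arrays of 24 h than on 12 h replicate 3, by 0.52 for CUST_22665, 0.94 for CUST_23529 and 0.55 for CUST_38293. With the slide as a fixed block, 3 of the 20 were called at 3 h in place of 4 (2.60% of all probes), 0 at 12 h (5.67%) and 0 at 24 h, where only 3 of all 34470 probes were called, so that the last count is no result about these probes. Their 24-h differences from 0 h in that fit were 0.92 for CUST_22665, 1.62 for CUST_23529 and 0.25 for CUST_38293. With the scan date as a block, 4 were called at 3 h (2.92% of all probes), 0 at 12 h (6.77%) and 0 at 24 h (0.667%), and the 24-h differences were 2.34, 1.57 and 0.96 in the same order. CUST_23550 was 1.997-fold above 0 h at 3 h in both block fits, under the fold threshold. The 4 called with the scan date block were therefore not the same 4 as without a block. Without 24 h replicate 3, the array on which MBF1c was highest, 1 of the 20 was called at 24 h in place of 3, and without 12 h replicate 3, 0 were called at 12 h in place of 2. Calls over all probes fell as well, to 532 from 1097 at 24 h and to 2663 from 3115 at 12 h. The heat shock calls are too few to compare with these losses, and whether theirs were particular to them was not tested.

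**Figure D3:**
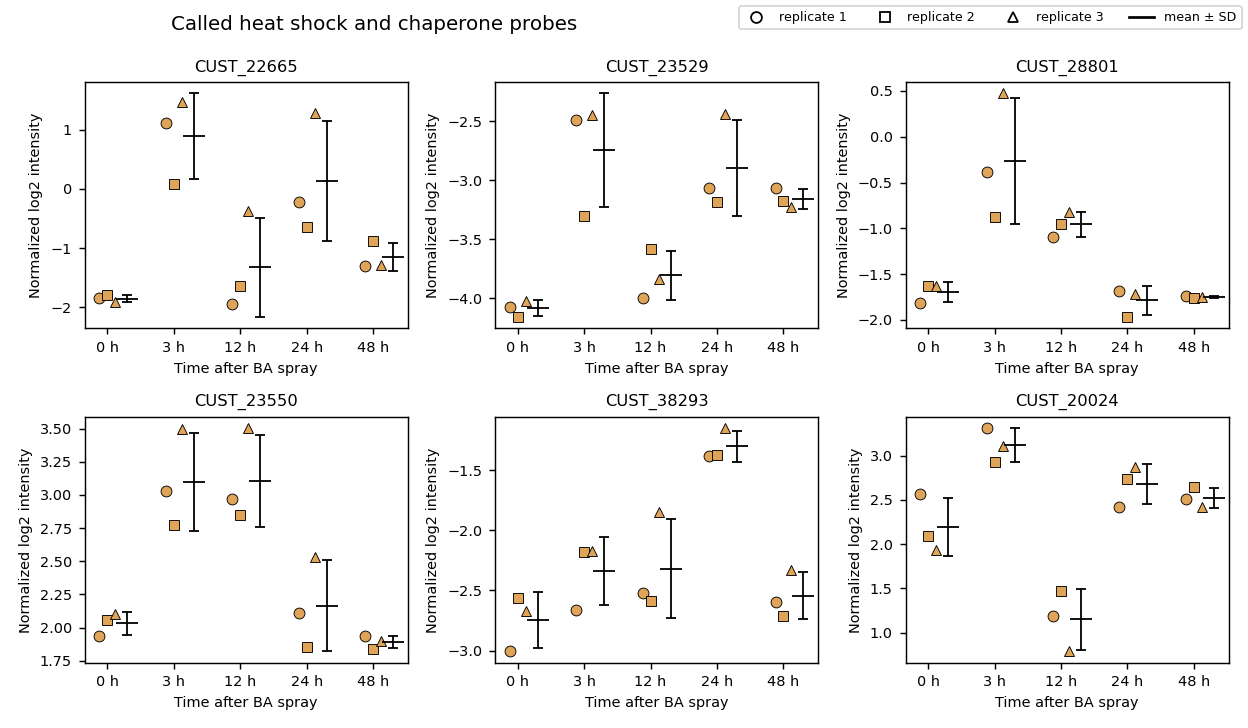
Normalized log2 intensity (y axis, a scale for each panel) of the 6 called heat shock and chaperone probes on each array by time after the BA spray (x axis), with the shape giving the replicate and the bars the mean ± SD of 3 arrays. CUST_22665 is high at 3 h (0.08 to 1.48) and at 24 h (−0.65 to 1.29) with replicate 3 highest at both, and CUST_20024 is low at 12 h alone.

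Replicates of a time point that were high for MBF1c were also high for some of these probes and not for others. Over 15 arrays, with each time point's mean taken off, the deviations of the 20 heat shock probes correlated with those of MBF1c at a median of 0.263, from −0.167 to 0.897. The 4 highest were CUST_22665 at 0.897, CUST_23529 at 0.844, CUST_20982 (another putative heat-shock protein) at 0.834 and CUST_23550 at 0.79, and they are named because they are the highest. The medians were −0.06 over the ERF list, −0.01 over the ethylene list and 0.01 over all probes tested, and single members of the first 2 reached 0.571 (CUST_3282) and 0.681 (IBR5). These deviations share arrays, and no p is attached to them. All 20 heat shock probes were taken from a list that may hold only changed probes. All probes tested are therefore not taken as a like background for these deviations or for the shares that follow. At 3 h, replicate 2, the lowest for MBF1c, was the lowest for 13 of the 20 heat shock probes (65%), as against 27.2% of 34304 probes with a value on all arrays. At 24 h, replicate 3, the highest for MBF1c, was the highest for 11 of 20 (55%), as against 38.4% of all probes, and also for 4 of 7 ERF probes (57.1%). At 12 h the highest array of MBF1c was the highest for 12 of the 20 (60%, all probes 35.5%) and its lowest the lowest for 11 (55%, all probes 33.6%). The highest array of 3 h was shared by 12 of the 20 (60%, all probes 34.6%) and the lowest of 24 h by 7 (35%, all probes 28.8%). At 48 h the shares were close to those of all probes, with 8 of 20 sharing the highest array (40%, all probes 40%) and 7 of 20 the lowest (35%, all probes 34.6%), and at 0 h the shares were 10 of 20 for the highest (50%, all probes 31.8%) and 4 of 20 for the lowest (20%, all probes 27.8%). Shares above those of all probes were thus not seen at every time, nor in the heat shock list alone. What differed between these bud samples was not tested.

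Over all 15 arrays, with time differences included, the heat shock probes correlated with MBF1c at a median of 0.172 (lowest −0.505, highest 0.741), and 15 of 20 were at or above 0. The 7 ERF probes lay between 0.347 and 0.675 and the 9 ethylene probes between −0.629 and 0.474. The median over 34304 probes was 0.017. All these correlations are over the same 15 arrays and describe the likeness of patterns, in which few high arrays weigh heavily.

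The probes most like MBF1c over 15 arrays carried no name in the annotation used here. CUST_31836 had the highest correlation, 0.908, and CUST_32269 the next, 0.886, while 72 of 34304 probes reached 0.8 and 1 reached 0.9. CUST_31836 read −3.88, −3.88 and −3.59 at 0 h, then −2.68, −2.73 and −2.40 by 3 h. The 12-h arrays read −2.91, −2.92 and −1.76, those of 24 h −2.33, −2.04 and −1.63, and those of 48 h −3.35, −3.26 and −3.06. As for MBF1c, all 12 later arrays lay above those of 0 h and 24 h replicate 3 was the highest, but its mean rose by 1.18 at 3 h and 1.25 at 12 h, where MBF1c rose by 3.50 and 3.86.

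Among 841 probes with a usable name, the 8 most like MBF1c were a prolyl 4-hydroxylase alpha subunit (CUST_13354, correlation 0.869), an HVA22 protein (CUST_20509, 0.867), ubiquitin-activating enzyme E1c (CUST_12743, 0.855), rrp4 (CUST_12296, 0.834), a nonspecific lipid-transfer protein (CUST_37825, 0.785), Ataxin-3 (CUST_14119, 0.783), a glutathione S-transferase (CUST_34886, 0.773) and the kinase NEK5 (CUST_9356, 0.773). Of the 841 named probes, 703 are in the study's annotated probe list, which may hold only changed probes. No list member was among the 8. Prolyl 4-hydroxylases modify proline residues in proteins such as those of the cell wall, rrp4 is a subunit of the RNA exosome, and glutathione S-transferases join glutathione to reactive compounds.

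Their changes were mostly far smaller than that of MBF1c. CUST_13354 was 0.32, 0.29, 0.57 and 0.05 above 0 h at 3, 12, 24 and 48 h, and CUST_12296 0.51 and 0.92 above it at 3 and 12 h. The exception was CUST_34886, which was 1.94 above 0 h at 3 h and 2.87 at 12 h, where its 3 arrays read −2.29, −3.99 and −0.59. HVA22 and E1c were dim, and their correlations and places among the 8 rest in part on values that were not well above background. The HVA22 spot was well above background on 7 of 15 arrays (0 of 3 at 0 h, then 2 of the 3-h arrays, 3 of the 12-h arrays and 1 each of the 24-h and 48-h arrays) and the E1c spot on 12 (0 of 3 at 0 h), so no fold is given for them, whereas the other 6 were well above it on 15 of 15 arrays. When likeness was taken over the 5 time point means in place of 15 arrays, 5 of these 8 were again among the 8 nearest named probes.

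**Figure D4:**
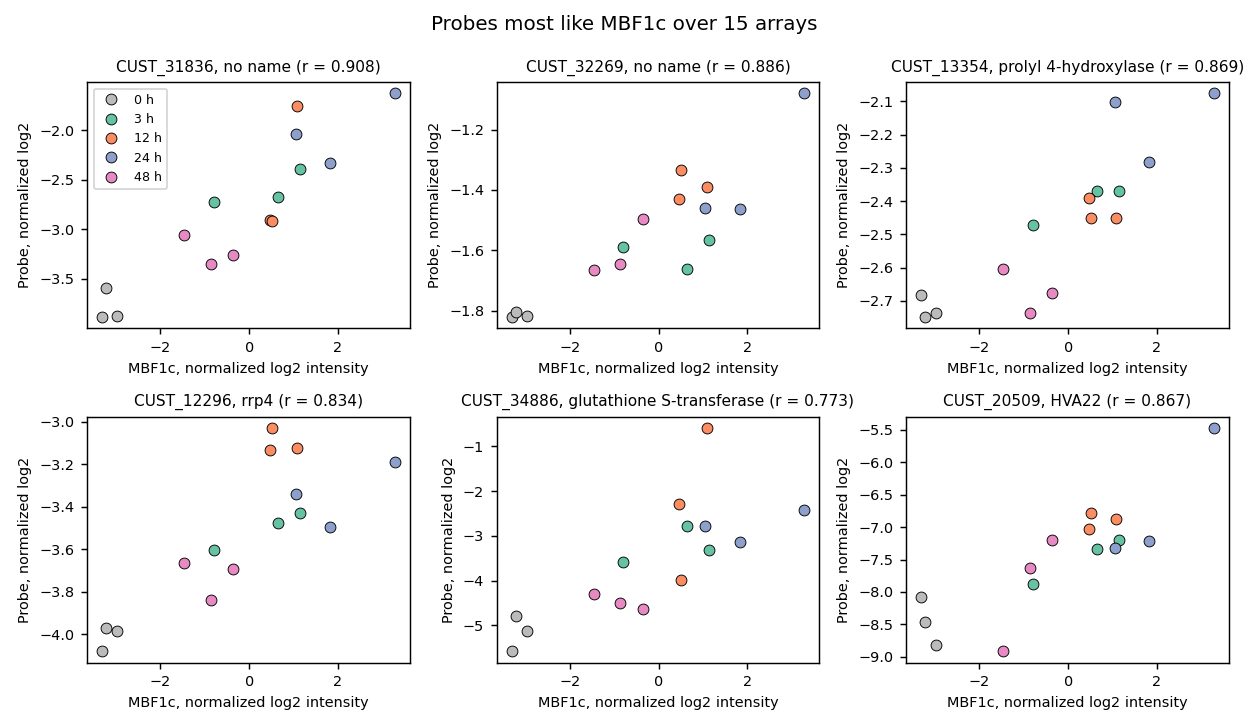
Normalized log2 intensity of 6 probes that resemble MBF1c (y axis, a scale for each panel) against that of MBF1c (x axis), 1 point for each of 15 arrays coloured by time after the BA spray, with the Pearson correlation in each title (HVA22 was well above background on 7 of the 15 arrays only). The 0 h arrays lie at the far left and low in each panel, and 24 h replicate 3 lies at the far right.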

How the data were processed

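Labelled RNA of 15 bud samples was read on one-colour Agilent arrays. The authors deposited, for each array, spot intensities after background subtraction within the array by Agilent Feature Extraction (version 10.7.3.1), and 1 table of log2 values for all arrays, which was within 0.1 of quantile-normalized log2 intensities for 99.99% of values, has a column median of 10.28 on every array and served as an alternative. A genome build is not given in the sources used here, and no coordinates are given.

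Processed intensities were taken to log2 and each array's 75th percentile was subtracted. Control spots and those carrying an outlier mark were dropped, and values of repeated spots averaged. The test covered 34470 of 41651 probes (82.8%), for which every array of some time point was well above background, and left out 7181. Between 79.0% and 84.0% of probes per array were well above background, and the number of arrays limits the precision. Time was the only factor in limma 3.58.1 (R 4.3.3). The fit was tested on simulated data with known changes.

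Samples were grouped by the labelled time. Named in the text are MBF1c, every ethylene list member, called members of the other lists, the 8 named probes with the highest Pearson correlation with MBF1c (names such as hypothetical or unknown protein left out) and the 2 highest over all probes. CUST_20982 was added after its values were seen. MBF1c and the lists were chosen with earlier results of these data known. Probe names and sequences came from the study's tables, held here only in part. Alternatives were other scalings, the deposited table, normexp background correction, slide, scan date and replicate blocks, marked spots kept, other filters, fits of 6 arrays, and each array left out.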

Additional observations from a re-analysis of the deposited data

How the results depend on the processing

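MBF1c stayed above 0 h at all 4 times under every alternative tried. Over 9 alternatives other than leaving out arrays (8 at 48 h), its log2 difference ran from 3.23 to 3.82 at 3 h, 3.59 to 4.33 at 12 h, 4.89 to 5.70 at 24 h and 2.00 to 2.75 at 48 h, and over leaving out each array from 3.097 to 4.07, 3.66 to 3.97, 4.61 to 5.73 and 2.01 to 2.56. None of these moved it by more than the SD within time points, 0.743. Counts of list members moved more. Called at any time were 1 ethylene, 4 ERF and 1 salicylic acid probes without scaling, and 1 ERF probe with the scan date as a block. Calls over all probes at 48 h moved in the same settings too, as given below, so these counts are not read as a result about the list members. Leaving out each array gave 1 to 2 ethylene, 2 to 3 ERF, 5 to 6 heat shock and 0 salicylic acid probes. With normexp, 0 ethylene probes were called at 3 h, and with the slide as a fixed block 0 at 3 h and 0 ERF probes at 12 and 24 h. Over all probes, 931 were called at 48 h in the fit reported, but 1496 without scaling, 477 with normexp, 225 with the scan date block and 593 when only probes well above background on all arrays were tested. At 24 h, 1097 became 612 with normexp, 3 with the slide block and 230 with the scan date block, and at 12 h, 3115 became 1954 with the slide block. Leaving out each array gave 688 to 997 calls at 3 h, 2663 to 3467 at 12 h, 532 (without 24 h replicate 3) to 1380 at 24 h and 432 (without 48 h replicate 3) to 985 at 48 h. The slide block gives no value at 48 h, and both the slide and the scan date block link 0 h to the later times through 3 h replicate 1 alone. The causes were not tested. Arrays with the same replicate number deviated together at a median correlation of 0.061 (−0.27 to 0.38, 11 of 30 pairs over 0.1). The median for pairs with different numbers was 0.015. Whether arrays with the same number share more than that number was not tested. With the replicate block, calls over all probes were 879, 3109, 1119 and 937 at 3, 12, 24 and 48 h, 2 ethylene, 2 ERF, 0 salicylic acid and 6 heat shock probes were called at any time, and the differences of MBF1c were 3.50, 3.86, 5.23 and 2.28.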
